A study of Arabidopsis thaliana with 32 samples.

Results

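The summits described here are sites at which elongating RNA polymerase II (RNAPII) gave a higher ChIP-seq signal in the Arabidopsis thaliana mutant tfiis-1 than in wild-type Col-0 before heat, in genes that no longer had any such site after 3 h of heat shock. The genes were selected by the deposited lists themselves: a gene had to be in the tfiis-1-higher list of 0 min and absent from the tfiis-1-higher list of 3 h. Of the 1345 genes with a tfiis-1-higher summit at 0 min, 262 met this rule, and they held 281 of the 1527 summits. The other 1083 genes, with 1250 summits, were still listed at 3 h and serve as the comparison throughout. All 8 lists of the series together held 29485 summits in 9114 genes.

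S2P RNAPII, the form phosphorylated at serine 2 of the C-terminal repeats, was precipitated from whole seedlings grown in vitro, 14 days after stratification. The groups were Col-0 and tfiis-1, each with no heat shock (0 min) or with 10 min, 30 min or 3 h of heat shock; no label gives the temperature. Each of the 8 groups had 3 ChIP libraries and 1 input library, 32 samples in all. The label tfiis-1 names a single mutant line, so nothing separates the allele from other differences of that line. The TFIIS gene (AT2G38560) had 0 summits in the 8 lists, so the lists do not check the genotype. Whole seedlings mix many cell types, and a change in polymerase per cell and a change in the cells that use a gene cannot be told apart.

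RNAPII that stalls during elongation can slide backwards on the template, so that the 3′ end of the RNA leaves the active site. TFIIS stimulates the polymerase to cut the protruding RNA and to resume synthesis. Phosphorylation of serine 2 accumulates on polymerase that has left the promoter region, so an S2P signal marks the transcribed body and the 3′ end of a gene rather than its start.

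Each list gives summits, the single base pairs at which the authors called 1 genotype above the other, with the gene that holds them. No value per library is given. Depth and the spread between replicates are therefore unknown, and no comparison below carries a test. Absence from a list means that no summit was called, not that the genotypes were equal. Shares of genes and summits are given with exact (Clopper-Pearson) 95% intervals, which cover counting error only. Positions follow the direction of transcription, with 0 for the annotated start and 1 for the end, and coordinates are TAIR10.

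The tfiis-1-higher list of 0 min held 4.9% of the 27444 nuclear protein-coding genes, and that of 3 h held 23.7%. These 2 lists made the rule, so nothing is read from them. All 262 genes were nuclear and protein-coding. Most of them, 241, held 1 tfiis-1-higher summit at 0 min and 21 (8.02%) held 2, whereas 146 (13.5%) of the genes still listed at 3 h held 2 or more. Just outside the rule were 424 genes that kept a place in the 3 h list through 1 summit. Just inside it were 2 short genes with a 3 h summit of a neighbour close by. The 0 min summit of AT5G52045 (chromosome 5, 21131089) lay 48 bp from a 3 h summit assigned to the splicing factor gene RS41, and that of AT1G72755 (chromosome 1, 27383773) lay 348 bp from one assigned to TIM23-2. The other 279 summits had no tfiis-1-higher summit within 500 bp at 3 h.

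The genes were listed after 10 min of heat at a share near that of the genes that stayed, and after 30 min at a lower one, with intervals far apart. At 10 min, 126 of the 262 genes (48.1%, interval 41.9 to 54.3) were tfiis-1-higher, against 585 of 1083 (54.0%, interval 51.0 to 57.0) of those still listed at 3 h and 10.9% of all nuclear protein-coding genes. At 30 min, 111 genes (42.4%, interval 36.3 to 48.6) were tfiis-1-higher, against 939 (86.7%, interval 84.5 to 88.7) and a background of 16.6%. From 10 min to 30 min the share thus differed by little in the genes absent at 3 h, while among the genes still listed it was higher at 30 min. Both times listed 74 genes (28.2%), against 49.7% of the genes still listed and 6.68% of all. At least 1 of the times listed 163 genes (62.2%), against 91.0% and 20.8%. The genes made up 4.22% of the 10 min list and 2.44% of the 30 min list.

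**Figure D1:**
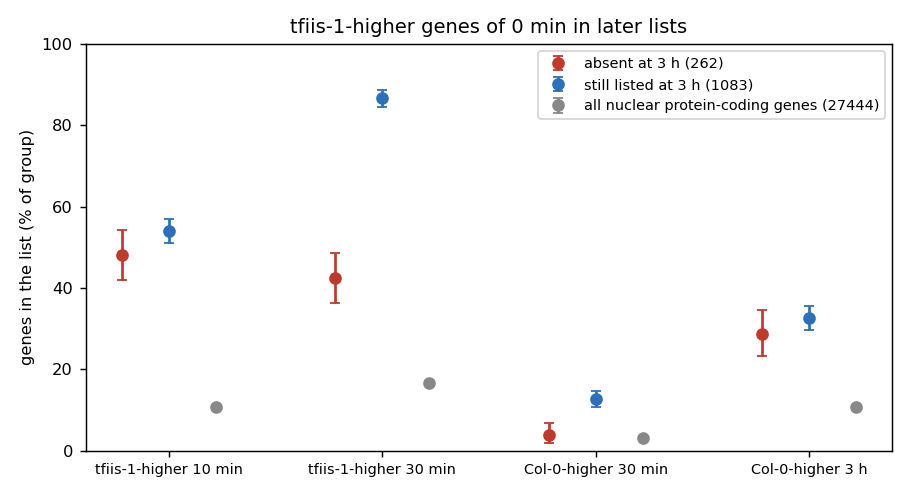
Share of genes (y axis, percent of the group) found in 4 later lists (x axis), for the 262 genes absent from the tfiis-1-higher list of 3 h, the 1083 genes still listed and all 27444 nuclear protein-coding genes; bars are exact 95% intervals. The red and blue points lie close together at 10 min (48.1% and 54.0%) and far apart at 30 min (42.4% and 86.7%).

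Summits of the opposite direction were rare in these genes until 3 h. None of the 262 was Col-0-higher at 0 min or 10 min, lists that held 0.113% and 0.251% of all genes; 0 of 262 allows a share of up to 1.40% (upper end of the exact interval). At 30 min 10 genes (3.82%, interval 1.85 to 6.91) were Col-0-higher, close to the background of 3.16%, while 137 (12.6%, interval 10.7 to 14.8) of the genes still listed at 3 h were. Within the length classes given below, the intervals of the 2 groups overlapped. With absence taken per site, 520 genes had a 0 min summit with no tfiis-1-higher summit of 3 h within 500 bp. Of those 9.81% were Col-0-higher and 66.3% tfiis-1-higher at 30 min, and 16.3% were in no later list. The 520 mix genes absent at 3 h with genes still listed then through another summit. A gene still listed cannot be in no later list, and no comparison group was formed per site. These shares therefore do not test the rule, and the low shares at 30 min are stated for absence per gene alone. At 3 h 75 genes (28.6%, interval 23.2 to 34.5) were Col-0-higher, against 353 (32.6%) of the genes still listed and 10.8% of all genes. That list compares the same libraries as the rule, so its share is given as a description.

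The courses of the 262 genes divided as follows. In 87 genes (33.2%, interval 27.5 to 39.3) no other list of the series held a summit, whereas 83 (7.66%) of the genes still listed were tfiis-1-higher at these times alone, 0 min and 3 h, and in no further list. Another 52 genes were tfiis-1-higher at 10 min and not at 30 min, and 22 of these were Col-0-higher at 3 h. A further 37 were tfiis-1-higher at 30 min and not at 10 min, with 8 of them Col-0-higher at 3 h. Of the 74 genes listed at both times, 34 were Col-0-higher at 3 h. The remaining 12 genes went from the 0 min list to a Col-0-higher list alone: 9 at 3 h, 1 at 30 min and 2 at both.

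The genes were shorter than those still listed. Their median length was 2187 bp (interval 2013 to 2436), against 3054 bp (interval 2939 to 3149) for the genes still listed and 2078 bp for all nuclear protein-coding genes. The 87 genes of no other list had a median of 1810 bp. Among tfiis-1-higher genes of 0 min, the share absent at 3 h was 38.5% (112 of 291) below 2000 bp, 17.9% (75 of 419) from 2000 bp to under 3000 bp, 15.2% (43 of 282) from 3000 bp to under 4000 bp and 9.07% (32 of 353) at 4000 bp or more. A long gene offers more positions for a summit; the part of length in the result was not tested beyond the classes below.

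The lower share at 30 min was present within every length class. In genes under 2000 bp, 33.0% of those absent at 3 h were tfiis-1-higher at 30 min, against 69.3% of those still listed and 6.34% of all genes of that length. From 2000 bp to under 3000 bp the shares were 54.7%, 84.6% and 19.8%. From 3000 bp to under 4000 bp they were 39.5%, 90.0% and 27.7%. At 4000 bp or more they were 16 of 32 genes, 96.3% and 37.2%. At 10 min the intervals of the 2 groups overlapped in all 4 classes, with shares of 39.3% and 48.0% (6.1% of all genes of that length), 54.7% and 55.8% (14.1%), 60.5% and 61.1% (16.8%), and 46.9% and 50.2% (15.9%). For the Col-0-higher list of 30 min the intervals also overlapped in all 4 classes. From the shortest class to the longest, 2.68%, 5.33%, 4.65% and 1 of 32 genes absent at 3 h were listed there. In the genes still listed it was 5.59%, 9.88%, 12.6% and 19.6%, and in all genes 1.85%, 3.19%, 3.85% and 7.51%. The share Col-0-higher at 3 h, again a description, was 22.3%, 38.7%, 37.2% and 15.6% from the shortest class to the longest. It was 18.4%, 29.7%, 38.5% and 39.3% in the genes still listed and 7.14%, 11.7%, 14.7% and 18.6% in all genes of those lengths.

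**Figure D2:**
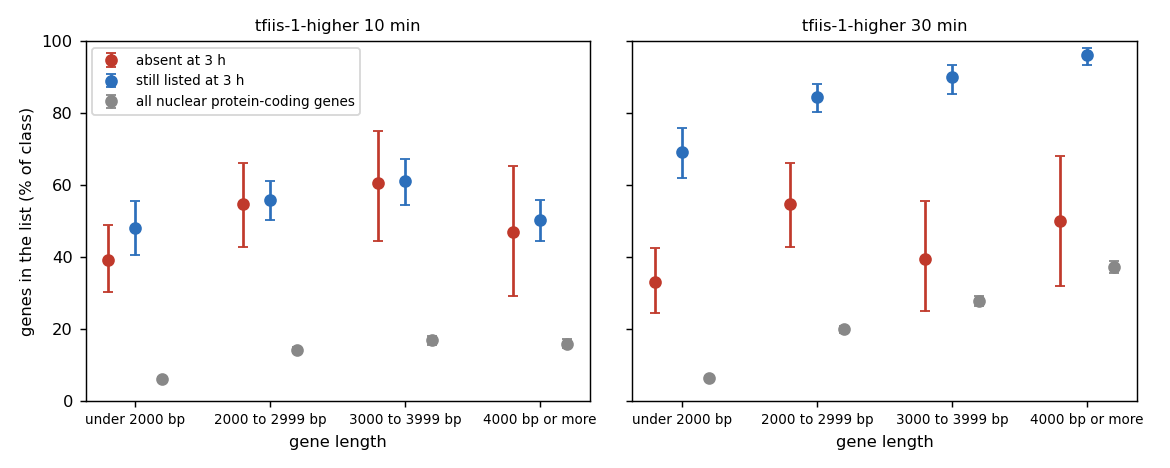
Share of genes (y axis, percent of the class) in the tfiis-1-higher lists of 10 min (left) and 30 min (right) by gene length (x axis), for genes absent at 3 h, genes still listed at 3 h and all nuclear protein-coding genes; bars are exact 95% intervals. At 30 min the red points, from 33.0% to 54.7%, lie below the blue ones, from 69.3% to 96.3%, in every class.

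Along the gene, the 0 min summits lay in the middle. Counting a summit inside 2 overlapping genes in each, the 283 pairs of summit and gene had a median position of 0.47 (quartiles 0.31 and 0.63), 895 bp from the start, against 0.39 and 1139 bp in the genes still listed. Only 2 lay in the first 10% of the gene, while 28 (9.89%, interval 6.68 to 14.0) lay in the last 10%, against 3.19% (interval 2.29 to 4.32). Part of the distance in position went with length: the medians were 0.52, 0.45, 0.34 and 0.34 from the shortest class to the longest, against 0.47, 0.42, 0.36 and 0.30. These positions belong to the contrast that made the rule and are a description. The share in no later list by position of the 0 min summit was 26.0% for the first of 3 equal stretches of the gene, 34.5% for the middle and 20 of 50 genes for the last, but the 3 intervals overlapped.

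At 10 min the 169 pairs had a median position of 0.79, with 31.4% in the last 10%, near 0.71 and 30.7% in the genes still listed. The whole 10 min list had 0.78 and 32.6%. At 30 min the median of the 152 pairs was 0.59, against 0.47 in the genes still listed and 0.51 over the whole list. By length class, shortest to longest, the medians were 0.55, 0.60, 0.54 and 0.63, against 0.56, 0.51, 0.50 and 0.43. The medians were closest in the shortest class, also near each other from 3000 bp to under 4000 bp, and furthest apart at 4000 bp or more. The Col-0-higher summits of 3 h lay at the gene ends, with a median of 0.93 over 83 pairs and 163 bp to the annotated end. In the genes still listed the median was 0.97, and over the whole list it was 0.95. In the last 10% of the gene lay 55.4% (interval 44.1 to 66.3) of the summits, against 77.6% (interval 73.0 to 81.7) in the genes still listed. Over the whole list it was 65.5%, inside the interval of the genes absent at 3 h.

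**Figure D3:**
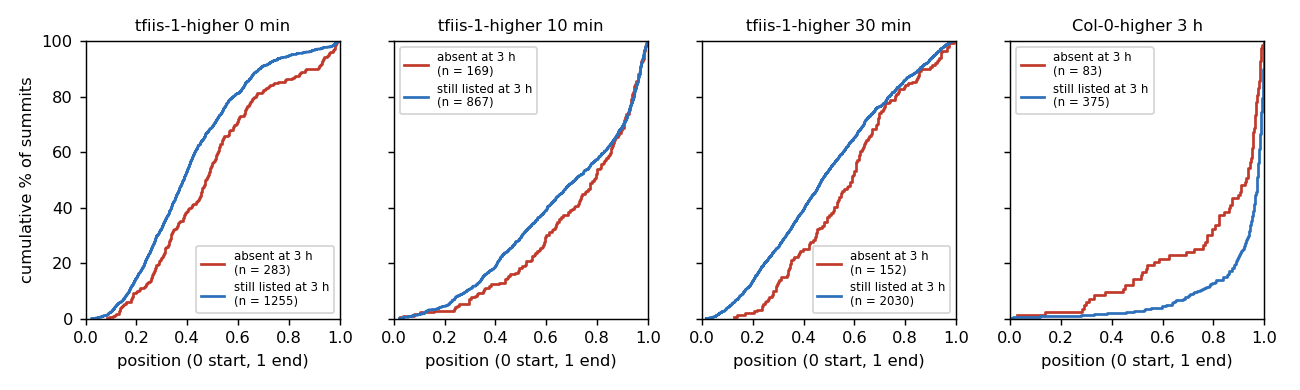
Cumulative percent of summits (y axis) by position in the gene (x axis, 0 for the annotated start and 1 for the end) in 4 lists, for genes absent from the tfiis-1-higher list of 3 h (red) and genes still listed (blue). The red curves lie to the right at 0 min and 30 min, nearly meet the blue beyond 0.9 at 10 min, and lie to the left for the Col-0-higher summits of 3 h.

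Within single genes, the shift is the median position of a gene's later summits minus the median of its 0 min summits. A gene can thus count as shifted although 1 of its later summits lay near a 0 min summit. At 10 min the median shift over the 126 genes with both was 687.5 bp towards the 3′ end, or 0.33 of the gene. The shift was downstream in 111 genes and upstream in 15. At 30 min the median shift over 111 genes was 258.5 bp, downstream in 79 and upstream in 32. A 30 min summit lay within 500 bp of a 0 min summit of the same gene in 85 of these genes (76.6%), at a median distance of 87 bp. At 10 min this was 60 of 126 (47.6%). In the genes still listed a 30 min summit was that close in 794 of 939 (84.6%), at a median of 82 bp. The genes still listed shifted by a median of 818 bp at 10 min and 259 bp at 30 min, so the shift was not particular to the genes absent at 3 h.

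**Figure D4:**
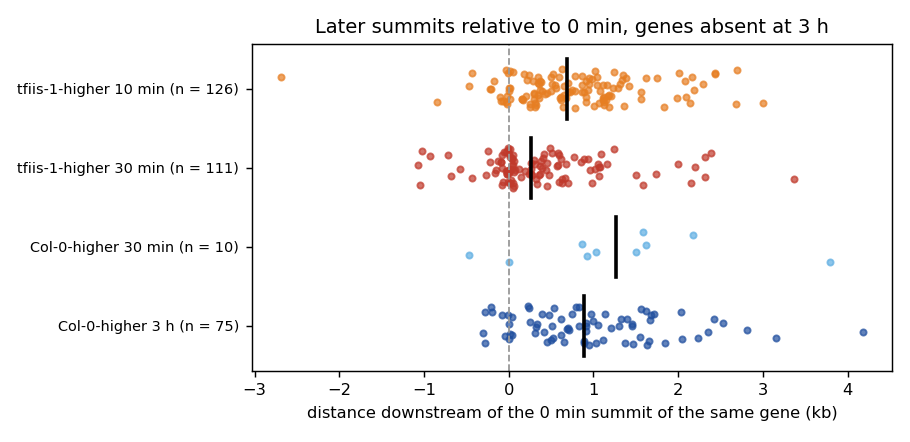
Distance in kb (x axis) from the median 0 min summit of a gene to the median of its later summits in a list. Downstream is to the right, and the genes are those absent from the tfiis-1-higher list of 3 h. Each point is a gene, points are spread vertically only for legibility, and black bars are medians. To the right of 0 lie 111 of 126 genes at 10 min and 79 of 111 at 30 min, and within 500 bp of it lie 47 and 68 genes.

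Followed site by site, 62 of the 281 summits (22.1%) had a tfiis-1-higher summit within 500 bp at 10 min, against 25.3% of the summits in genes still listed and 24.8% of all 0 min summits. At 30 min it was 87 (31.0%, interval 25.6 to 36.7), against 70.3% (interval 67.7 to 72.8) and 63.2%. A Col-0-higher summit of 30 min lay within 500 bp of 2 summits (0.712%), near the 0.72% over all 0 min summits.

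At 3 h a Col-0-higher summit lay within 500 bp of 26 of the 281 (9.25%, interval 6.13 to 13.3), against 20 of 1250 (1.60%, interval 0.980 to 2.46) in genes still listed and 2.95% over all 0 min summits. The shares were 10.1%, 12.3%, 4.55% and 5.41% from the shortest length class to the longest, against 1.09%, 1.06%, 1.47% and 2.41%. A gene that is tfiis-1-higher near a site at 3 h can hardly be Col-0-higher there, so the rule itself bears on this difference. Counted by gene, 25 of the 75 Col-0-higher genes had such a site near a 0 min summit. The Col-0-higher summits of 3 h were also set against those of 10 min. Of the 56 genes that were Col-0-higher at 3 h after being tfiis-1-higher at 10 min, 44 (78.6%) had summits of the lists within 500 bp, at a median distance of 173 bp. In the genes still listed this was 188 of 240 (78.3%). Set against the 30 min list it was 13 of 42 genes (31.0%), at a median distance of 642.5 bp, and 80 of 328 (24.4%) in the genes still listed. How often summits of these lists lie this close by their position in the gene alone was not tested.

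In some genes the Col-0-higher summit of 3 h was called almost exactly on the 0 min summit. Those named here had the smallest distances, while over all 75 Col-0-higher genes of 3 h the median nearest distance was 747 bp. TED4 (AT2G26670; chromosome 2, 11341548 to 11343693, plus strand) encodes heme oxygenase 1, which makes the precursor of the phytochrome chromophore in plastids. Its tfiis-1-higher summit of 0 min lay at 11343662, 31 bp from the gene end. The Col-0-higher summit of 30 min lay 7 bp from it and that of 3 h lay 1 bp from it, and no tfiis-1-higher summit was listed at 10 min or 30 min. IDD4 (AT2G02080), a zinc finger transcription factor, had its 0 min summit at position 0.29, 2 tfiis-1-higher summits at 10 min at 0.33 and 0.59, and a Col-0-higher summit of 3 h 7 bp from the first. In bZIP7 (AT4G37730) the distance was 10 bp, at position 0.45, and a second Col-0-higher summit lay at 0.93.

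AT1G14345 had its 0 min summit at 0.86 and the Col-0-higher summit of 3 h 11 bp away, with 10 min summits at 0.03 and 0.77. UMAMIT41 (AT3G28050), of a family of amino acid transporters, was tfiis-1-higher at 0.49 at 0 min, at 0.59 at 10 min and at 0.45 and 0.76 at 30 min, and Col-0-higher 15 bp from the 0 min site at 3 h. In AOC2 (AT3G25770), an allene oxide cyclase of jasmonate synthesis, 40 bp separated the 0 min summit at 0.51 from the Col-0-higher summit. AT5G61830 (32 bp, at 0.98) and BB (AT3G63530; 78 bp, at 0.94), an E3 ubiquitin ligase that limits organ size, held theirs near the gene end. These 8 genes had the smallest distances of the 75 and differed in where along the gene these calls lay, from 0.29 to 0.99.

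The 10 genes that were Col-0-higher at 30 min carry the only scores of these genes, in the authors' deposited list. IAA9 (AT5G65670; chromosome 5, 26253408 to 26256544), an Aux/IAA repressor of auxin response, had the highest, 21.9 on the authors' scale, place 33 of 896 summits. Its tfiis-1-higher summits lay at 0.52 at 0 min, at 0.77 and 0.98 at 10 min and at 0.53 and 0.72 at 30 min. Its Col-0-higher summits lay 13 bp from the gene end at 30 min and 51 bp from it at 3 h, near the 10 min summit at 62 bp. At 30 min the gene was therefore called in both directions, tfiis-1-higher in the body and Col-0-higher at the end.

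RCD1 (AT1G32230; chromosome 1, 11611891 to 11617419), a nuclear protein that binds transcription factors in oxidative stress, had a score of 20.3 in the authors' deposited list. It held 1 tfiis-1-higher summit at 0 min at 0.13 and 5 at 10 min, from 0.16 to 0.83. The Col-0-higher summits lay at 0.82 at 30 min and at 0.37 and 0.81 at 3 h. VDAC3 (AT5G15090; chromosome 5, 4888964 to 4891603), a channel of the outer mitochondrial membrane, scored 10.1 in the authors' deposited list, with the Col-0-higher summit at 0.87 at both times, 1 bp apart. AT2G30000 (score 8.85 in the authors' deposited list, 15 bp from the end), TED4 (8.09) and AT1G68490 (6.81, at 0.78) came next in order of score. The lowest was AT3G13480, with 2.02 in the authors' deposited list, place 892 of 896.

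Genes with many tfiis-1-higher summits during heat were nevertheless absent from the 3 h list. UAP56a (AT5G11170), an RNA helicase of mRNA export and splicing, had a 0 min summit at 0.26, 2 at 10 min at 0.24 and 0.81, and 4 at 30 min from 0.14 to 0.58. ACA4 (AT2G41560), a vacuolar calcium pump, had 4 at 10 min, from 0.25 to 0.97, and 2 at 30 min, at 0.13 and 0.97; the first of these lay 35 bp from the 0 min summit. Neither gene was Col-0-higher at any time. CPD (AT5G05690), a cytochrome P450 of brassinosteroid synthesis, went from 0.12 at 0 min to 0.57 and 0.91 at 10 min and to 0.47, 0.67 and 0.91 at 30 min. At 3 h it was Col-0-higher at 0.28 and 0.59, both in the gene body.

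RAP2.7 (AT2G28550; chromosome 2, 12225656 to 12228624), an AP2-type floral repressor, and HON4 (AT3G18035), a protein with a linker histone domain, each had 2 tfiis-1-higher summits at 10 min and 3 at 30 min. Both were Col-0-higher near the end at 3 h, RAP2.7 at 0.93 and HON4 at 0.95. AT1G05805, the bHLH factor AKS2, had the same numbers of summits and no Col-0-higher summit. In FP3 (AT5G63530), a metal-binding protein carrying a farnesyl group, all 6 summits lay from 0.49 to 0.99. TBL27 (AT1G70230), of the family that acetylates cell wall polysaccharides, had 10 min summits 26 bp and 4 bp from its 0 min summits at 0.36 and 0.93. At 30 min it had 1 summit, 49 bp from the first.

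**Figure D5:**
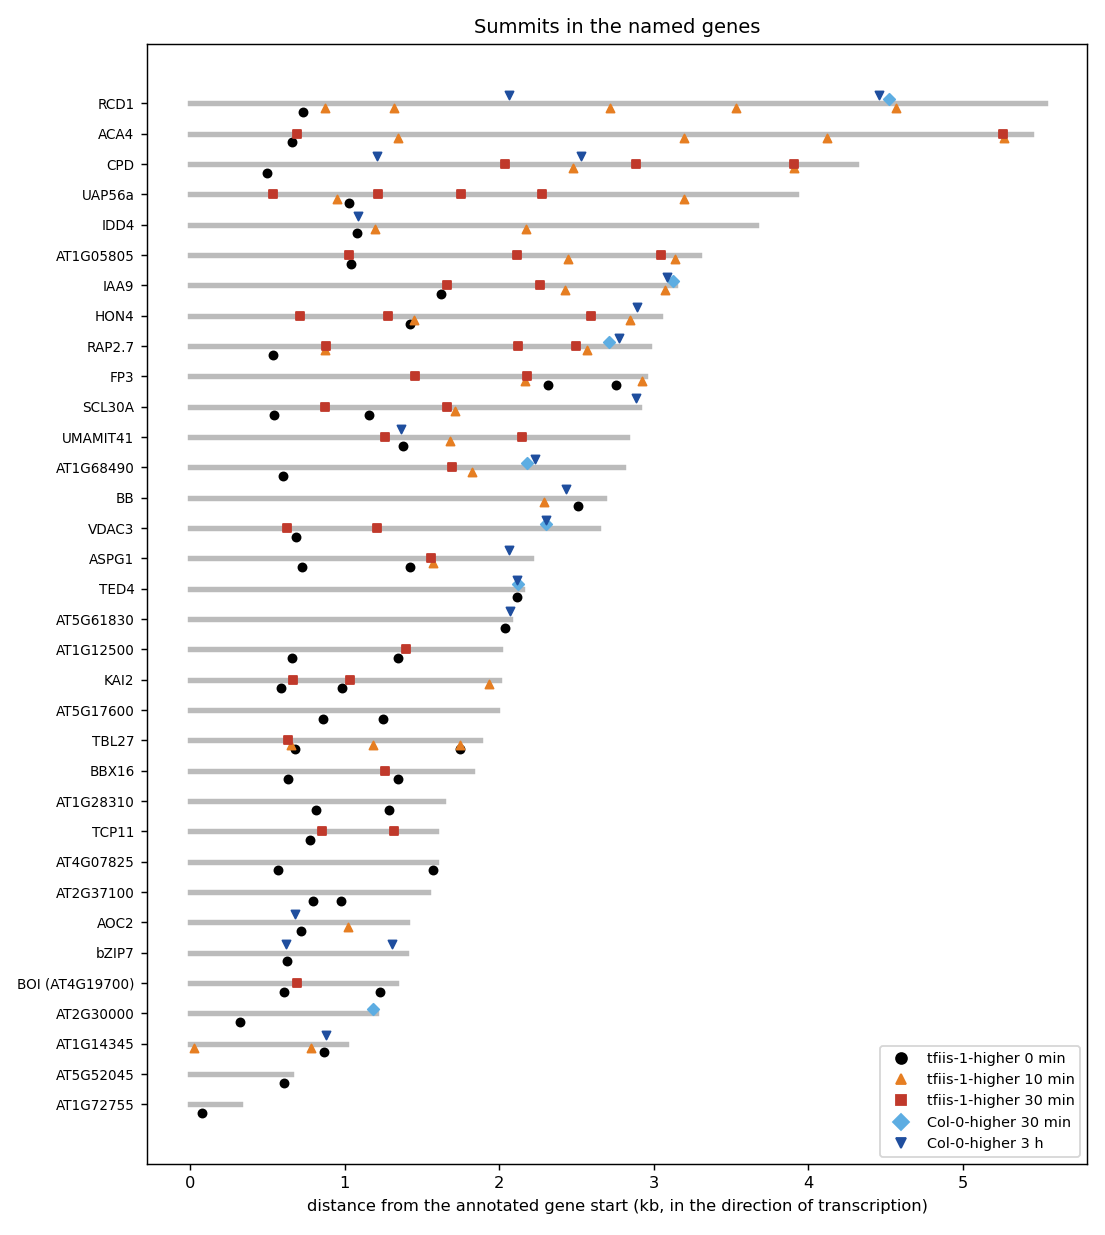
Summits in 34 genes named by rule (y axis) by distance from the annotated start in kb (x axis); grey bars are the genes, black points the 0 min summits, and coloured symbols the later lists. Genes such as TED4 and IDD4 have a Col-0-higher symbol of 3 h on the black point, while RCD1, IAA9 and VDAC3 have it far downstream.

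The 21 genes with 2 summits at 0 min did not share a course. AT2G37100, AT4G07825, AT1G28310 and AT5G17600 were in no later list, with their summits at 0.52 and 0.64, 0.36 and 0.99, 0.50 and 0.79, and 0.43 and 0.63. KAI2 (AT4G37470), the karrikin receptor, had summits at 0.29 and 0.49, 30 min summits 76 bp and 52 bp from them, and a 10 min summit at 0.97. BOI (AT4G19700), a RING protein of pathogen response, BBX16 (AT1G73870), a B-box factor, and AT1G12500 were listed again at 30 min alone, each 87 bp or less from a 0 min summit. ASPG1 (AT3G18490), an aspartic protease of guard cells, was tfiis-1-higher at 0.71 at both 10 min and 30 min, then Col-0-higher at 0.94 at 3 h.

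Of 7 hand-written gene lists, 2 held a member. Of all nuclear protein-coding genes 4.9% were tfiis-1-higher at 0 min, and 19.5% of those were absent at 3 h. The counts below are small and are a description beside these shares. The list of 20 SR splicing factors had 8 tfiis-1-higher genes at 0 min, of which SCL30A (AT3G13570) was absent at 3 h. SCL30A had 0 min summits at 0.19 and 0.40, 1 at 10 min at 0.59, 2 at 30 min at 0.30 and 0.57, and a Col-0-higher summit of 3 h 20 bp from its end. The list of 18 circadian clock genes had 4, of which TCP11 (AT5G08330, also called CHE, a repressor of the clock gene CCA1) was absent; its 30 min summits lay at 0.54 and 0.83. The tfiis-1-higher genes that the hand-written lists held for light signalling (6), hormone perception and response (8), the unfolded protein response (1) and photosynthesis (1) were still listed at 3 h. Those lists are short: the hormone genes named further down were not on them. No gene of the heat response list, which held 32, was tfiis-1-higher at 0 min, where the share of all genes was 4.9%.

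Transcriptional regulators of growth and development formed the largest group put together after the genes were seen, so that its counts support nothing. It held 27 genes, 13 of them tfiis-1-higher at 10 min, 14 at 30 min, 9 Col-0-higher at 3 h and 7 in no other list. The shares of all 262 genes were 48.1%, 42.4%, 28.6% and 33.2% in that order. BES1 (AT1G19350), the transcription factor of brassinosteroid response, was tfiis-1-higher at 0.28 at 0 min, at 0.77 at 10 min and at 0.25 and 0.59 at 30 min. ATML1 (AT4G21750), a homeodomain factor of the epidermis, was listed at 0.11 at 0 min and at 0.17 and 0.85 at 30 min. bHLH071 (AT5G46690) stayed at 0.86 at all 3 times, its later summits 3 bp and 1 bp from the first.

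Of all tfiis-1-higher genes of 0 min, 19.5% were absent at 3 h. The rule fixed that share and the family counts that follow, which are a description. TCP factors, regulators of cell proliferation in leaves and other organs, had 6 tfiis-1-higher genes of 22 at 0 min and 5 of the 6 were absent. TCP14 (AT3G47620) and TCP2 (AT4G18390) were Col-0-higher at 3 h, at 0.86 and 0.63. All 3 zinc finger homeodomain genes of 0 min were absent: HB22, HB30 and HB34, each tfiis-1-higher at 10 min (48.1% of all 262 genes). Other families were divided. Absent were 2 of 4 IDD zinc finger genes of 0 min and 2 of 5 GATL genes of pectin synthesis. The same held for 2 of 3 TBL acetyltransferase genes and 2 of 3 PDCB callose-binding genes. Of 5 B-box genes 3 were absent, and both Aux/IAA genes of 0 min were absent too. IAA18 (AT1G51950), like IAA9, was tfiis-1-higher at 10 min and 30 min, and its Col-0-higher summit of 3 h lay 33 bp from its end.

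Other small families differed in how alike their members were. The 3 CLE peptide genes of 0 min, CLE16, CLE17 and CLE43, encode small secreted signals and were in no other list. The 3 genes BOI, BRG2 and BRG3 of related RING proteins were all tfiis-1-higher at 30 min, and 1 of them at 10 min as well. Both CURT1 genes of 0 min, AT1G52220 and AT4G01150, which bend thylakoid membranes, were tfiis-1-higher at 10 min and 30 min, and 1 of them was Col-0-higher at 3 h. The 4 UMAMIT genes of 0 min were all absent at 3 h but differed among themselves, with 2 in no other list. These families are small and were looked up after the genes were seen. Of all 262 genes, 48.1% were tfiis-1-higher at 10 min, 42.4% at 30 min and 28.6% Col-0-higher at 3 h, while 33.2% were in no other list.

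Further groups were likewise put together by hand after the genes were seen, so which genes were picked sets their counts. The counts stand beside the shares of all 262 genes and support nothing. Of 10 genes of hormone synthesis, transport and perception, 9 were tfiis-1-higher at 10 min and 5 at 30 min, where the shares of all 262 were 48.1% and 42.4%. The receptor genes PYR1 (AT4G17870, abscisic acid), AT3G03990 (strigolactone) and KAI2 were listed at both times. PYR1 had summits at 0.39 at 0 min, 0.93 at 10 min and 0.67 at 30 min. PIN4 (AT2G01420), an auxin exporter, was listed at 0.36 at 0 min and at 0.92 at 10 min, and then in no list. LOX2 (AT3G45140), a lipoxygenase of jasmonate synthesis, was tfiis-1-higher at 0.15 and 0.82 at 0 min, at 0.64 and 0.94 at 10 min, and Col-0-higher at 0.77 and 0.91 at 3 h.

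Of 14 genes picked by hand as plastid proteins, none was in the 0 min list alone, and 8 were Col-0-higher at 3 h. The shares of all 262 were 33.2% and 28.6%, but which genes were picked sets these counts. J20 (AT4G13830; chromosome 4, 8010967 to 8012880), a plastid co-chaperone, was tfiis-1-higher at 0.48 at 0 min, at 0.96 at 10 min and at 0.49 at 30 min. It was Col-0-higher 57 bp from its end at 30 min and 35 bp from it at 3 h. TRXF1 (AT3G02730), a thioredoxin that activates enzymes of carbon fixation in light, had its 0 min summit at 0.64 and was next listed at 3 h, Col-0-higher at 0.95.

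The 6 genes picked by hand as RNA and chromatin factors were tfiis-1-higher at 30 min, and 5 of them at 10 min. The shares of all 262 were 42.4% and 48.1%, but here too the pick sets the counts. CRB (AT1G09340), an RNA-binding protein of plastids counted with the plastid proteins, was listed at 10 min and not at 30 min. HIRA (AT3G44530), a histone chaperone, had its 0 min summit at 0.97 and a 30 min summit 26 bp away. P40 (AT1G72370), a protein of the small ribosomal subunit, had summits at 0.39 at 0 min and at 0.38 and 0.90 at both later times. Of 8 genes of the epidermis and of secreted peptides 4 were in no other list, where the share of all 262 was 33.2%, STOMAGEN (AT4G12970), a peptide that promotes stomata, among them with its summit at 0.58.

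Genes of the cell wall and of transport were divided. PDCB1 (AT5G61130), which binds callose at plasmodesmata, was tfiis-1-higher at 30 min 1 bp from its 0 min summit, while GATL2 and GATL3 of pectin synthesis were in no other list. SWEET17 (AT4G15920), a vacuolar fructose transporter, had a 30 min summit 41 bp from that of 0 min and a 10 min summit at 0.75. OPT7 (AT4G10770), an oligopeptide transporter, had 3 summits at 10 min, from 0.30 to 0.97, and 1 at 30 min at 0.96. KT1 (AT2G30070), a potassium transporter, had its 0 min summit at 0.15 and its Col-0-higher summit of 3 h at 0.97.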

How the data were processed

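Per the submitters' processing notes, Bowtie2, FastQC, MACS3, deepTools and TAIR10 were used, without versions; thresholds, scaling and pooling are not given in the sources used, and each could change which genes are listed. The authors deposited 8 lists of summit positions (32357 lines) without a signal or count per library. The score, held by the Col-0-higher files of 30 min and 10 min, is the authors' deposited value, of unstated scale, and was used to rank within a list. Repeated lines were counted once. All 9114 gene identifiers matched the RefSeq table of TAIR10.1, and the 936 gene intervals given in the lists equal that table. Genes, lists and families were chosen with earlier results of these data known. Named genes were members of 7 hand-written lists, 10 of the 21 genes with 2 summits at 0 min (the shortest), and the leading 6 or 8 of each course; genes named for a family or function were chosen after their values were seen. No sequence was read. Shares carry exact 95% intervals and medians order-statistic intervals. Counts, shares and median positions were checked on simulated data, but the intervals were not. The computations ran in Python 3.11.15 (pandas 2.3.3, numpy 2.4.6; scipy 1.17.1 for intervals; figures by matplotlib 3.10.9).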

Additional observations from a re-analysis of the deposited data

How the results depend on the processing

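Of 64 alternatives 48 stayed within the interval of the reported value and 16 moved. Taking absence per site (no tfiis-1-higher 3 h summit within 500 bp) gave 520 genes, among them genes still listed at 3 h through another summit. The latter cannot be in no later list, so the per-site values mix both groups and do not test the rule. Of the 520 genes, 54.8% were tfiis-1-higher at 10 min. At 30 min 66.3% were and 9.81% were Col-0-higher, and no later list held 16.3%. Their median positions were 0.71 at 10 min, 0.50 at 30 min and 0.96 for Col-0-higher 3 h, their median length was 2882 bp, and 43.4% of summits had a 30 min summit within 500 bp. A window of 200 bp gave 13.2% at 10 min, 25.3% at 30 min and 3.56% for Col-0-higher 3 h, and a window of 1000 bp gave 36.3%, 40.6% and 18.9%. Merging summits within 300 bp, a minimum gene length of 1000 bp, summits in 1 gene and 1 position per gene moved no value beyond its interval; nor did genes with 1 summit at 0 min, an alternative chosen after seeing the data. No paired analysis was possible because the lists hold no value per library, which also barred leaving out a replicate and limits every statement to what was called.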

Other observations

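The genes absent from the tfiis-1-higher list of 3 h were spread over all 5 chromosomes, as 21.6% of the tfiis-1-higher 0 min genes of chromosome 1, 17.1% of chromosome 2, 21.3% of chromosome 3, 22.3% of chromosome 4 and 15.3% of chromosome 5. Among them were 8 pairs of neighbouring genes, 16 genes in all. Such pairs were not counted in the genes still listed, so this number is a description. In 2 pairs, AT4G14900 with FdC1 (AT4G14890), which encodes a ferredoxin-like protein, and AT4G17243 with AT4G17245, a single 0 min summit lay inside both genes. STOMAGEN and AT4G12980 had 0 min summits 4135 bp apart. Of the 28 genes with a 0 min summit in the last 10% of the gene, 14 were in no other list. At 10 min 8 were tfiis-1-higher, at 30 min 8 were, and 4 were Col-0-higher at 3 h. The shares of all 262 genes were 33.2%, 48.1%, 42.4% and 28.6% in that order.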
